A study of Rattus norvegicus and Bos taurus with 6 samples.

Results

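De novo lipogenesis is the making of fatty acids from acetyl-CoA. In all, 10 genes of this pathway were followed by symbol in 6 single-nucleus RNA-seq libraries of rat and cow fat, with 19424 nuclei: Acly, Acaca, Acacb, Fasn, Elovl6, Scd, Me1, Thrsp, Srebf1 and Mlxipl. Of these 10 genes, 9 had a row in every library, and Mlxipl was read in cow only and was not analysed here in rat. The rat libraries came from male Dahl salt-sensitive rats (SS/HsdMcwiCrl) on a normal diet with no further treatment. They held mesenteric perivascular fat (mesPVAT) prepared once with 10x Genomics chemistry and once with Parse Biosciences chemistry, retroperitoneal fat (RP fat), thoracic aortic perivascular fat (taPVAT) and brown fat (BAT), the last 3 with Parse chemistry. The titles class mesPVAT and RP fat as white and taPVAT and BAT as brown. The cow library was flank subcutaneous white fat of lactating female Holstein cows, also with Parse chemistry. Each group was 1 library, so no test between groups could be made.

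ATP citrate lyase (Acly) cuts citrate exported from mitochondria into acetyl-CoA, acetyl-CoA carboxylase turns it into malonyl-CoA, and fatty acid synthase (Fasn) builds palmitate from malonyl-CoA with NADPH, part of which comes from malic enzyme (Me1). Of the carboxylases, Acaca encodes the cytosolic enzyme that feeds synthesis, and Acacb encodes an enzyme at the mitochondrial surface whose malonyl-CoA restrains fatty acid import through carnitine palmitoyltransferase 1. Elovl6 lengthens palmitate and Scd places a double bond in the product, while SREBP-1 (Srebf1), ChREBP (Mlxipl) and the nuclear protein Spot 14 (Thrsp) raise the pathway in response to insulin and carbohydrate. Brown fat of rodents is known for a high capacity for this synthesis, and ruminant fat is known to start it mainly from acetate.

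The libraries held 5887 nuclei (mesPVAT 10x), 3028 (mesPVAT Parse), 2805 (RP fat), 2708 (taPVAT), 2699 (BAT) and 2297 (cow), with no barcode shared between libraries. Depth differed widely, from a median of 161 UMIs (unique molecular identifiers, the counted RNA molecules) per nucleus in mesPVAT 10x to 3530 in cow, and from 845316 UMIs in all in RP fat to 16827260 in cow. Levels are given as CPM, the UMIs of a gene summed over nuclei and scaled to counts per 1000000 UMIs of those nuclei, with 95% exact Poisson intervals in brackets that cover counting error only and not differences between animals. The study's text gives the 2 white Parse libraries the opposite order of UMIs and genes per nucleus from the deposited labels, so the names mesPVAT Parse and RP fat stand below only for what the labels say. Counts against both white libraries do not depend on which is which. Nuclei with at least 1 UMI of Plin1 or Adipoq, a lipid-droplet coat protein and a secreted hormone of adipocytes, are called positive. They made up 62.3% of the nuclei in taPVAT, 71.1% in BAT, 24.0% in mesPVAT 10x, 23.2% in mesPVAT Parse and 10.5% in RP fat. In cow, where Plin1 alone was read, they made up 17.5%. The weight of the 2 markers also differed between the mesPVAT libraries. Adipoq stood at 571% of the mean of taPVAT and BAT in mesPVAT 10x and at 46.8% in mesPVAT Parse. Plin1 stood at 26.7% and 52.2%, so positive nuclei are not a like class in these 2 libraries. Adipocyte markers summed over 6 genes were lowest among the rat libraries in RP fat, at 958 CPM against 2798 in mesPVAT Parse, 4966 in mesPVAT 10x, 5237 in taPVAT and 5589 in BAT, and the 4 of them read in cow summed to 604. None of the markers read was at 0, and fewer adipocyte nuclei and less RNA per nucleus cannot be told apart in sums over all nuclei. The brown marker Ucp1 stood at 1782 CPM in taPVAT and 2072 in BAT, at 63.4 and 89.9 in mesPVAT Parse and RP fat, and at 0.808 in mesPVAT 10x. For the white Parse libraries, the study saw no clear inflection in the curve of UMIs over ranked barcodes. It took this as difficulty in telling true nuclei from background RNA. How many of their barcodes hold background RNA was not tested here. No doublet caller was run.

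Promoter windows were found in the RefSeq table (build GRCr8) for 7 of the 10 genes, and 4 of them are shown. Of these, 3 belong to genes that stood far apart between brown fat and the white Parse libraries, while the fourth, Me1, did not. Against mesPVAT 10x, Srebf1 at 1.22-fold and Thrsp at 1.79-fold had narrower gaps than Me1 at 1.89-fold. Each window shown runs over 250 bases up to the transcript start on the minus strand. Capitals mark CCAAT boxes (CCAAT) and GC boxes (GGGCGG) on either strand.
Acacb, chr12:48138215-48138464: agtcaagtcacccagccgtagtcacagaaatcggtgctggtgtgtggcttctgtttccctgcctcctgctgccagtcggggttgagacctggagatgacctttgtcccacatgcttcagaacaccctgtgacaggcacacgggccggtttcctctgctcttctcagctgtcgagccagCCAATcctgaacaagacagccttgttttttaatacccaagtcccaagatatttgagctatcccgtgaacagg
Thrsp, chr1:161138965-161139214: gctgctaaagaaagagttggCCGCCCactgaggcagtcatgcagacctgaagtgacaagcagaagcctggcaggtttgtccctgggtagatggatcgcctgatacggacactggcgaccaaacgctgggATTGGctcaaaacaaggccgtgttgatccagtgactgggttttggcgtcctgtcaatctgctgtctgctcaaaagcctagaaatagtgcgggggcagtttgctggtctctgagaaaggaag
Srebf1, chr10:45529165-45529414: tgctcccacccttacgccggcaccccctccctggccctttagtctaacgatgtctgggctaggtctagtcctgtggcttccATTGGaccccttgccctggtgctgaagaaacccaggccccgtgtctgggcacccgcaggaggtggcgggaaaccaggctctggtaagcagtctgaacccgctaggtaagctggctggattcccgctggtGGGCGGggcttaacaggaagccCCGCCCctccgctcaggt
Me1, chr8:96540245-96540494: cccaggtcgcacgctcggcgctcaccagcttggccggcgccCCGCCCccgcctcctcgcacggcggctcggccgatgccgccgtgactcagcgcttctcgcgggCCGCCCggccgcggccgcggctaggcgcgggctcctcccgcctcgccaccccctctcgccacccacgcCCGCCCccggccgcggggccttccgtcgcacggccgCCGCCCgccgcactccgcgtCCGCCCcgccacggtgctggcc
Over the 9 windows of the 7 genes, 7 held a CCAAT box and 5 a GC box, against 34% and 30.5% of the 33469 windows of the same length. None of the 9 held an E-box (CACGTG, 5.59% of all windows) or the sterol regulatory element searched (TCACNCCAC, 0.974%), and no searched motif overlapped another in the windows shown. Mlxipl and Srebf1 each have 2 of the windows. Those of Mlxipl, 27213661 to 27213910 and 27213657 to 27213906 on chromosome 12, are nearly the same stretch, so its CCAAT boxes are counted in both. All these matches describe letters only, and they do not cover Acaca, Fasn and Elovl6, which had no window.

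**Figure D1:**
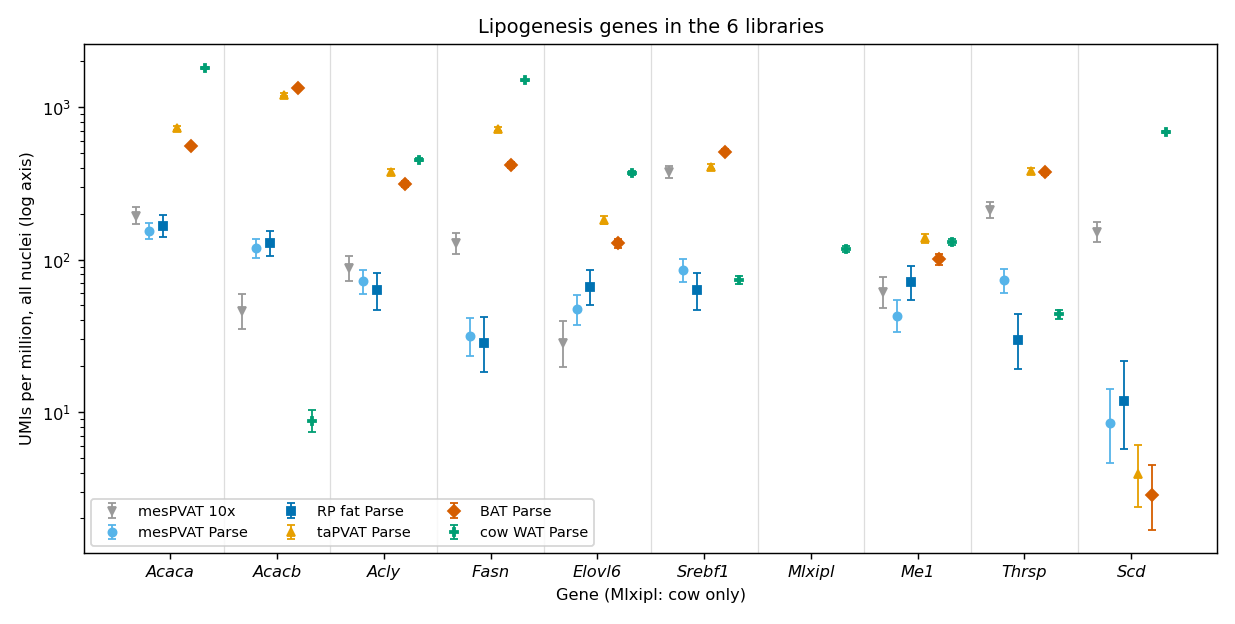
CPM of each gene over all nuclei of each library, on a log axis, with 95% exact Poisson intervals as bars. The brown libraries taPVAT and BAT lie above the white Parse libraries for every gene but Scd, and cow lies highest for Acaca, Fasn, Acly, Elovl6 and Scd and lowest for Acacb.

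Against the white Parse libraries, Fasn showed the widest gap of the members between brown and white rat fat. In taPVAT it measured 718 CPM (695 to 742), and BAT had 418 (402 to 434), against 31.4 (23.4 to 41.2) in mesPVAT Parse and 28.4 (18.2 to 42.2) in RP fat. The lowest ratio of a brown to a white library was 13.3 (10.1 to 17.9) and the highest was 25.3 (17.0 to 39.5). The white values rested on 52 and 24 UMIs. As a percentage of the brown mean, Fasn stood at 5.53% and 5.00% in mesPVAT Parse and RP fat, and Ucp1 stood at 3.29% and 4.67%. In mesPVAT 10x, of another run, Fasn stood at 22.5% of the brown mean and Ucp1 at 0.0419%. The part of RNA from brown nuclei in the white Parse values was not tested.

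Acacb came next against these libraries. It reached 1208 CPM (1178 to 1239) in taPVAT and 1338 (1309 to 1366) in BAT, against 118 (102 to 136) in mesPVAT Parse and 128 (105 to 154) in RP fat. All 4 ratios of a brown to a white library lay between 9.46 and 11.3. Acaca, the other carboxylase, had 734 (711 to 758) in taPVAT, 556 (538 to 575) in BAT, 155 (136 to 175) and 167 (140 to 197), and its ratios lay between 3.33 and 4.75. Acly, at 374 and 314 CPM in taPVAT and BAT against 71.8 and 62.7, had ratios of 4.37 to 5.97.

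Among the regulators, Srebf1 measured 408 CPM in taPVAT and 511 in BAT against 85.1 and 62.7 in mesPVAT Parse and RP fat. Thrsp was nearly level between the brown libraries, at 382 in taPVAT and 375 in BAT, and was 73.0 in mesPVAT Parse and 29.6 in RP fat. The BAT to taPVAT ratio of Thrsp was 0.980 (0.922 to 1.04), so these neighbours did not differ beyond counting error. Between the brown libraries, Fasn was lower in BAT, with a ratio of 0.582 (0.553 to 0.612), as were Acaca at 0.758 (0.724 to 0.794), Elovl6 at 0.702 (0.638 to 0.773), Me1 at 0.729 (0.654 to 0.813) and Acly at 0.839 (0.787 to 0.893). Srebf1 was higher in BAT, with a ratio of 1.25 (1.18 to 1.32).

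Against the white Parse libraries, Elovl6 and Me1 had the narrowest gaps of the members that were higher in brown fat. Elovl6 measured 183 CPM in taPVAT and 128 in BAT against 47.1 and 66.2, and its smallest ratio, BAT over RP fat, was 1.94 (1.48 to 2.58). Me1 measured 138 and 100 CPM against 42.9 and 71.0, and its smallest ratio was 1.41 (1.08 to 1.87). Scd went the other way at a level close to the floor of the Parse rat data. It had 20 UMIs in taPVAT (3.92 CPM) and 18 in BAT (2.85), and 14 (8.45) and 10 (11.8) in mesPVAT Parse and RP fat. Its near copy Scd2 was as scarce, at 3.32 to 13.0 CPM in the rat Parse libraries, and reads shared by the copies could have been split or dropped in counting.

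A gene was called higher in brown fat when each brown library passed each white library at least 2-fold, with 1 UMI added to every sum, among genes averaging 10 CPM or more over the 4 libraries. By this rule 6 of the 8 rat members that passed the filter were higher over all nuclei (Acaca, Acacb, Acly, Fasn, Srebf1 and Thrsp), where 9.07% of the 10810 genes tested were higher. None was lower, where 22.2% of all genes were lower, and Scd did not pass the filter. With Fasn 17.8-fold, Acacb 10.3-fold, Thrsp 7.96-fold, Srebf1 6.17-fold, Acly 5.04-fold, Acaca 3.96-fold, Elovl6 2.70-fold and Me1 2.10-fold higher by the geometric means, the median log2 difference was 2.48 against -0.04 over all genes tested. Without RP fat all 8 were higher, and the share of all genes higher under that setting was not computed.

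The sum over all nuclei mixes the share of adipocyte nuclei with the level in each, so the comparison was repeated in positive nuclei. There 7 of 9 members were higher in brown fat, where 7.19% of the 10410 genes tested were higher, and Elovl6 had joined the list. Its BAT to RP fat ratio was 2.87 (1.31 to 7.85), so the interval reached below 2-fold. Scd was lower, as were 23.4% of all genes, on 4 to 11 UMIs a library. It passed the filter only through the white side, at 10.8 and 33.5 CPM in mesPVAT Parse and RP fat. In taPVAT and BAT it stood at 2.65 and 1.86, so no weight is put on its call. Fasn in positive nuclei measured 811 CPM in taPVAT and 451 in BAT, against 40.2 and 58.7 on 26 and 7 UMIs in mesPVAT Parse and RP fat. Acacb measured 1444 and 1543 against 155 and 151. The fold by geometric means went from 6.17 to 2.94 for Srebf1 and from 7.96 to 6.45 for Thrsp, and from 2.70 to 3.85 for Elovl6 and from 3.96 to 4.28 for Acaca. In positive RP fat nuclei these genes had 24, 3, 6 and 19 UMIs, so the shifts are uncertain. Plin1 itself, which defined these nuclei, had ratios of 0.867 to 0.906, at 2989 CPM in taPVAT and 2935 in BAT against 3299 and 3385. In nuclei picked by this gene its level depends on depth, so these ratios do not say how alike the nuclei are.

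**Figure D2:**
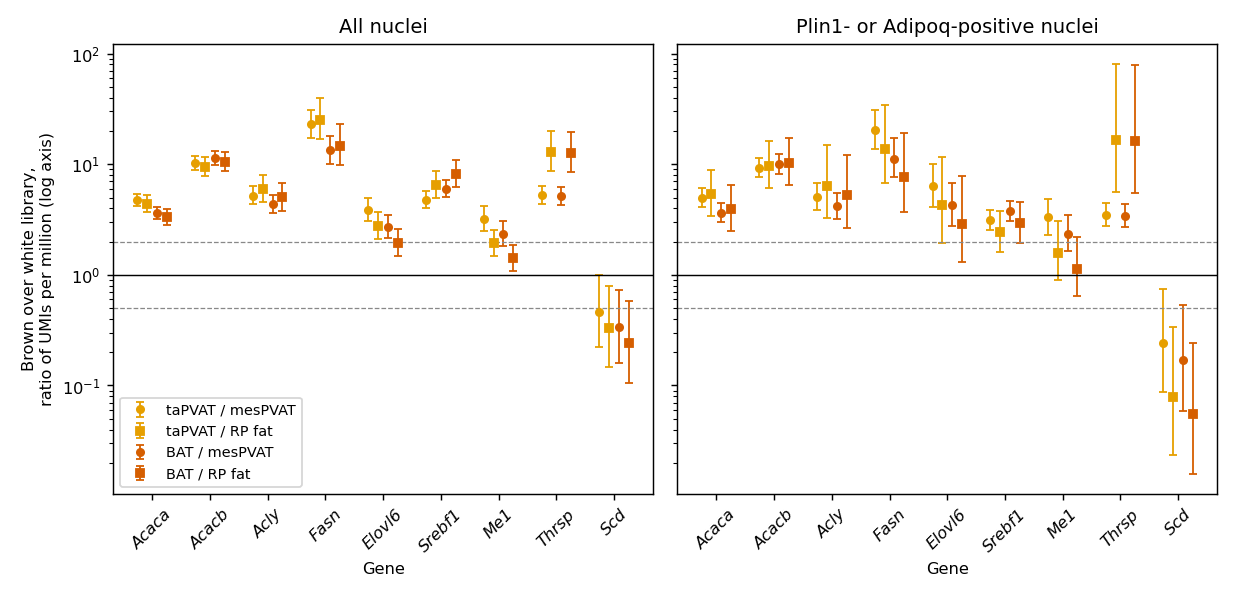
Ratio of CPM of each brown to each white Parse library, on a log axis, over all nuclei (left) and in positive nuclei (right), with 95% exact intervals of the ratio of 2 counts as bars and dashed lines at the 2-fold limits. The ratios of Fasn reach from 7.68 in positive nuclei to 25.3 over all nuclei, and those of Scd over all nuclei lie at 0.464 or lower.

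The 10x library of mesPVAT gave other values for some of the same genes and, by the labels, the same depot. Srebf1 stood at 375 CPM (342 to 411) against 85.1 with Parse chemistry, Thrsp at 211 (186 to 238) against 73.0, Fasn at 128 (109 to 149) against 31.4 and Scd at 152 (131 to 175) against 8.45. Elovl6 stood at 28.3 CPM against 47.1 and Me1 at 61.4 against 42.9. Acacb stood lower, at 46.1 (34.9 to 59.7) against 118, and the Parse to 10x ratio was 0.797 (0.666 to 0.954) for Acaca and 0.816 (0.624 to 1.07) for Acly. The 10x library carries batch label 1 and the Parse libraries batch label 2, and chemistry, batch, nuclei isolation and annotation cannot be told apart. Depot cannot be told apart from them either if the labels of the white Parse libraries do not hold. With the 10x library as the white side, an alternative chosen after seeing the data, 5 members were higher in brown fat over all nuclei and in positive nuclei, namely Acaca, Acacb, Acly, Fasn and Elovl6, where 17.4% and 16.8% of all genes were higher. The order of the gaps over all nuclei changed, with Acacb widest at 27.1-fold and Elovl6 next at 5.26-fold. Thrsp was 1.79-fold and Srebf1 1.22-fold higher over all nuclei, both under the 2-fold limit, Me1 was 1.89-fold and Fasn 4.26-fold higher, and Srebf1 in positive nuclei turned to 0.933-fold. Scd was lower in brown fat in both, where 21.4% and 23.9% of all genes were lower, and it again passed the filter only through the white side.

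Levels of different genes were set beside each other per kilobase of gene span in the 4 rat Parse libraries, and how evenly UMIs lie over a span was not tested. On this scale Thrsp was the highest of the 9 genes in each, at 88.4 CPM per kb in taPVAT, 86.6 in BAT, 16.9 in mesPVAT Parse and 6.84 in RP fat. Its gene is the shortest, at 4325 bp (chromosome 1, 161134640 to 161138964). Fasn (chromosome 10, 106570415 to 106588581) came second in taPVAT at 39.5 CPM per kb and stood beside Srebf1 in BAT, at 23.0 against 23.2. Acacb (chromosome 12, 48026394 to 48138214) measured 10.8 and 12.0 CPM per kb in taPVAT and BAT, and Acaca (chromosome 10, 69511627 to 69773888), the longest gene at 262 kb, measured 2.80 and 2.12. In the white libraries Acacb measured 1.06 and 1.14 CPM per kb and Acaca 0.589 and 0.636.

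The make-up of the carboxylases differed between the tissues. Acacb took 62.2% (61.3 to 63.2, exact binomial) of the Acaca and Acacb UMIs in taPVAT and 70.6% (69.8 to 71.4) in BAT. It took 43.4% (38.7 to 48.1) in mesPVAT Parse, 43.4% (37.1 to 49.8) in RP fat and 19.2% (14.9 to 24.1) in mesPVAT 10x. In cow it took 0.480% (0.405 to 0.564), from 147 Acacb and 30500 Acaca UMIs. Every rat library thus stood above cow, and the brown libraries stood above the white Parse libraries over all nuclei with no overlap of the intervals. In positive nuclei the share was 63.0% in taPVAT, 71.1% in BAT, 47.4% (40.5 to 54.4) in mesPVAT Parse, 48.6% (31.9 to 65.6) in RP fat and 0.184% in cow, so the RP fat interval covered the taPVAT share. Negative nuclei gave 43.7% (38.6 to 48.8) for taPVAT, 50.3% (44.4 to 56.2) for BAT and 39.8% and 42.5% for mesPVAT Parse and RP fat, and these intervals overlapped.

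**Figure D3:**
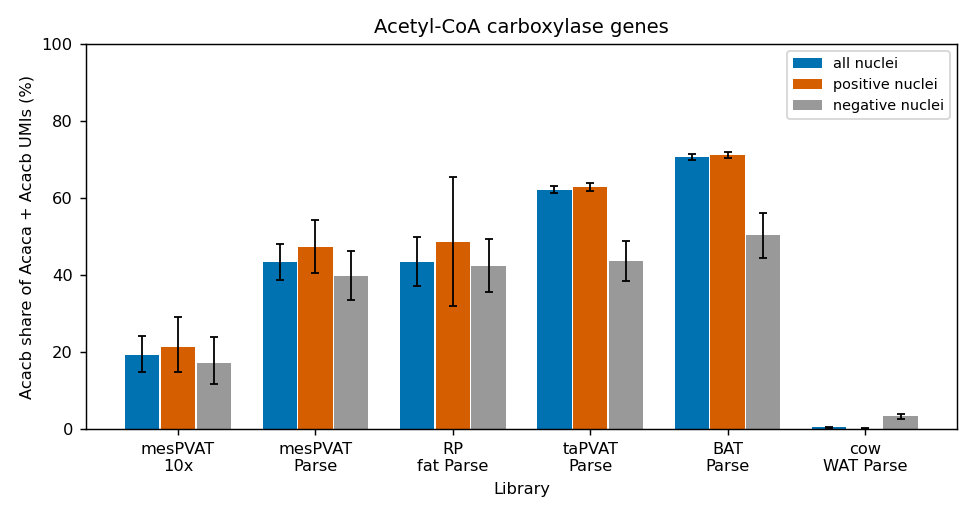
Share of Acacb among the UMIs of Acaca and Acacb in each library, in percent, over all, positive and negative nuclei, with 95% exact binomial intervals as bars. Over all nuclei the share is 0.480% in cow, 43.4% in both white Parse libraries and 62.2% and 70.6% in the brown libraries.

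Over all deposited nuclei, cow fat held 5 of the synthesis enzymes at levels above those of every rat library, and for Fasn, Acly and Elovl6 this order was lost within the study's limits on nuclei, given below. Acaca reached 1813 CPM (1792 to 1833), Fasn 1498 (1480 to 1517), Scd 686 (674 to 699), Acly 452 (442 to 462) and Elovl6 371 (361 to 380). Against mesPVAT Parse and RP fat, the ratio was 47.7 (36.4 to 63.9) and 52.8 (35.5 to 82.4) for Fasn and 11.7 (10.4 to 13.3) and 10.9 (9.21 to 12.9) for Acaca. Against mesPVAT 10x it was 11.7 (10.0 to 13.8) for Fasn and 9.35 (8.23 to 10.7) for Acaca. Acacb stood the other way at 8.74 CPM (7.38 to 10.3), with ratios of 0.0738 (0.0592 to 0.0919) and 0.0684 (0.0530 to 0.0885). Me1 in cow, at 130 CPM (125 to 136), did not differ from taPVAT beyond counting error, with a ratio of 0.945 (0.868 to 1.03).

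The regulators Srebf1 and Thrsp did not stand above white rat fat in cow. Srebf1 measured 73.7 CPM (69.6 to 77.9), between the white Parse libraries, and Thrsp measured 43.6 (40.5 to 46.9), also between them. Both were lower than in the brown libraries, where the cow ratio lay between 0.114 and 0.181, and than in mesPVAT 10x, where it was 0.197 (0.177 to 0.219) for Srebf1 and 0.207 (0.179 to 0.239) for Thrsp. Mlxipl, with 1971 UMIs or 117 CPM (112 to 122), was read in cow only.

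The comparison of cow with white rat fat shares its white libraries with that of brown and white fat. By the same 2-fold rule, 5 of 9 members were higher in cow than in both white Parse libraries over all nuclei (Acaca, Acly, Fasn, Elovl6 and Scd), where 11.8% of the 10254 genes tested were higher, and Acacb was lower, as were 25% of all genes. In positive nuclei 6 were higher, with Me1 added, where 11.1% of 9938 genes were higher, and Acacb alone was lower, where 27.4% were lower. The fold by geometric means was larger there, going from 11.2 to 23.9 for Acaca, from 6.54 to 18.4 for Elovl6 and from 48.7 to 63.2 for Fasn. Plin1, which alone defined positive cow nuclei, stood at 405 CPM in them, against 3299 in mesPVAT Parse and 3385 in RP fat. A progenitor-marker UMI was found in 84.5% of them against 18.4% and 15.6%, at median depths of 8295, 599.5 and 301 UMIs. Positive nuclei are thus not a like class in cow and rat. With mesPVAT 10x as the rat side, Srebf1 and Thrsp were called lower in cow as well, 3 of 9 members where 29.7% of all genes were lower, and the Scd fold went from 63.2 to 4.49. Species, sex, depot, diet, lactation, annotation and depth cannot be told apart in this comparison, and the median over all genes tested was -0.13 on the log2 scale over all nuclei and -0.28 in positive nuclei.

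The cow enzyme counts came from few nuclei, in a library whose deepest nucleus held 162490 UMIs at a median of 3530. How far all UMIs lie in few nuclei was not computed, so the shares that follow are not shown to be particular to these genes. Of the UMIs of the 9 members, the 23 highest nuclei of 2297 held 38.0%, and the single highest held 4300, or 5.03%. The 27 highest nuclei held 12.1% in taPVAT and 9.49% in BAT. The 128 positive cow nuclei with 15000 UMIs or more held 73.6% of the members' UMIs at 12002 CPM, while the 273 shallower positive nuclei stood at 8509 CPM and the 105 negative nuclei with 15000 UMIs or more at 832. Within the study's limits on nuclei, which keep 2020 cow nuclei of at most 15000 UMIs, the all-nuclei fold was 5.03 for Acaca, 21.7 for Fasn, 2.52 for Acly and 3.00 for Elovl6, and the same 5 members stayed past the 2-fold limit, where 9.92% of all genes did. Against brown fat, cow Acly was then lower, at 176 CPM (168 to 186) against 368 in taPVAT and 318 in BAT. Cow Fasn, at 664 CPM (646 to 681), stood between taPVAT, at 695 (672 to 719), and BAT, at 408, and so did Elovl6 at 172 (163 to 181), between 179 (167 to 191) and 129, with intervals that overlapped those of taPVAT for both genes. Acaca, at 785 CPM (766 to 805) against 731 (707 to 756) in taPVAT, and Scd, at 333, were still highest in cow. The highest barcode held 14.9% of all cow Acly UMIs. In positive nuclei under those limits Me1 was 2.66-fold higher without passing both pairs, and Srebf1 was called lower in cow. The part of barcodes with more than 1 nucleus in the deepest counts was not tested.

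Within the libraries, the question was where in the tissue the genes lay. In cow, Acaca stood at 4073 CPM (4025 to 4122) in positive nuclei and 276 (266 to 287) in negative ones, a 14.7-fold difference. Elovl6 was 16.2-fold, Mlxipl 14.1-fold, Fasn 13.8-fold, Scd 11.7-fold, Thrsp 11.5-fold, Acly 11.2-fold, Me1 4.06-fold and Srebf1 2.06-fold higher. Acacb was the only member not higher in positive cow nuclei, at 7.49 CPM (5.58 to 9.85) against 9.58 (7.76 to 11.7), and it did not pass the filter. All 9 members that passed were thus called higher, where 6.34% of all genes were. In nuclei grouped by their own marker UMIs, Acaca measured 6729 CPM in the 170 adipocyte-marker nuclei, 1261 in the 721 progenitor-marker nuclei and 301 in the 541 endothelial-marker nuclei. The progenitor-marker class held 7818 Acaca UMIs, against 2767 in all negative nuclei, so most of its Acaca UMIs came from positive nuclei. A nucleus went to the class whose markers had the most UMIs, so 1261 CPM is not a level of progenitors alone.

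In the brown libraries 7 of 8 members passed 2-fold, where 9.01% of genes did in taPVAT and 12.1% in BAT. Acacb was the most restricted to positive nuclei along with Srebf1. It was 8.27-fold higher in taPVAT (1444 against 175 CPM) and 9.87-fold in BAT (1543 against 156), and Srebf1 was 7.80-fold and 8.58-fold higher. Acaca was 3.77-fold and 4.06-fold, Acly 3.30-fold and 4.18-fold, Elovl6 4.94-fold and 4.09-fold, and Me1 3.32-fold and 4.06-fold higher. Fasn and Thrsp were the least restricted. Fasn was 2.64-fold higher in taPVAT and 1.98-fold in BAT, and Thrsp 1.67-fold and 2.17-fold, with levels in negative nuclei of 308 and 228 CPM for Fasn and 247 and 187 for Thrsp. In BAT, Thrsp stood at 220 CPM in endothelial-marker nuclei, 200 in progenitor-marker nuclei and 185 in immune-marker nuclei, against 420 in adipocyte-marker nuclei. Acacb stood at 155, 200 and 169 against 1637 in the same classes.

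**Figure D4:**
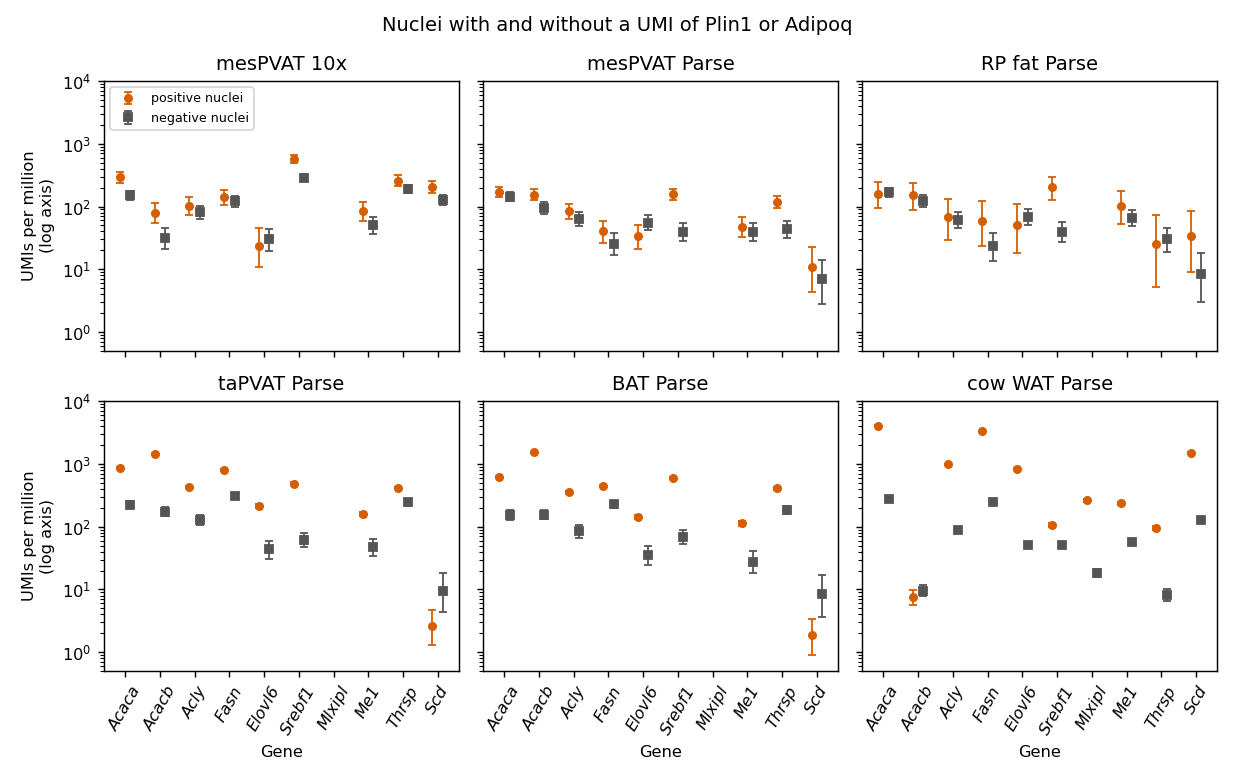
CPM of each gene in nuclei with (positive) and without (negative) a UMI of Plin1 or Adipoq, 1 panel per library, on a log axis with 95% exact Poisson intervals as bars. Positive and negative nuclei lie apart for 9 genes in cow and in white rat fat their intervals overlap for most genes, with Srebf1 apart in each white library.

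In white rat fat fewer members passed 2-fold at the deposited depth. Whether this order between the tissues holds at equal depth could not be settled by the thinning given below. The part of background RNA in the white Parse barcodes, positive or negative, was not tested. In mesPVAT 10x only Acacb passed 2-fold, 1 of 9 members, where 4.19% of genes did. In mesPVAT Parse Srebf1 (156 against 39.6 CPM, 3.94-fold) and Thrsp (119 against 43.6, 2.73-fold) did, 2 of 8 where 3.56% of genes did. In RP fat Fasn, Srebf1 and Scd did, 3 of 9, where 21.4% of genes did, on 7, 24 and 4 UMIs in 295 positive nuclei. Elovl6 was not higher in positive nuclei of either white Parse library, at 34.0 CPM (21.3 to 51.5) against 55.4 in mesPVAT Parse and 50.3 (18.5 to 109) against 68.9 (51.1 to 90.8) in RP fat.

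Positive and negative nuclei differed in depth. Positive nuclei had a median of 2188 UMIs in BAT and negative ones 897. When every nucleus was thinned to 200 UMIs before it was called, positive nuclei went from 1687 to 802 in taPVAT and from 1918 to 918 in BAT, and the members past 2-fold went from 7 to 2, where 10.2% of all genes passed, and from 7 to 1, where 8.68% did. The white libraries went the other way, from 1 to 2 of 9 in mesPVAT 10x (13.6% of all genes), from 2 to 4 of 8 in mesPVAT Parse (20.9%) and from 3 to 7 of 9 in RP fat (44.5%). Positive nuclei were called again after thinning, so those that lost their marker UMIs were counted as negative. The 1 UMI added to each sum also raises folds where few nuclei are positive, as in RP fat with 118 against 1385 negative. Counts before and after thinning are therefore not alike, and the step cannot say what equal depth does to them. In cow the same step left 41 positive nuclei, and the 8 members shared with rat were past 2-fold, as were 73% of all genes. With only nuclei of at least 500 UMIs, 7 of 9 members passed in mesPVAT 10x, where 18.5% of all genes did, and 8 of 8 in BAT, where 12.3% did.

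Thinned to 200 UMIs, a UMI of any of the 9 members was found in 40.2% (38.4 to 42.1) of taPVAT nuclei and 44.3% (42.5 to 46.2) of BAT nuclei, against 12.0% (10.8 to 13.3) in mesPVAT Parse, 9.65% (8.20 to 11.3) in RP fat, 21.7% in mesPVAT 10x and 23.4% (21.7 to 25.2) in cow. Shallower nuclei were left out, which kept 2099 nuclei in mesPVAT 10x, 2552 in mesPVAT Parse and 1503 in RP fat and all nuclei in the other libraries. Unthinned shares were 78.3%, 83.8%, 24.5%, 16.1%, 20.5% and 87.6% in the same order. For Acacb alone the thinned shares were 14.6% and 19.4% in taPVAT and BAT, 2.98% and 2.00% in the white Parse libraries and 0.218% in cow. For Fasn they were 9.86% and 7.67% in taPVAT and BAT, 0.823% and 0.266% in the white Parse libraries and 9.53% in cow. As a background, Fasn UMIs were found unthinned in 19.9% of the 176 taPVAT nuclei and 25.4% of the 67 BAT nuclei that held Ptprc, a leukocyte marker, and neither Plin1 nor Adipoq, against 46.8% and 40.7% of positive nuclei. Median depths were 745.5 and 904 UMIs in those leukocyte-marker nuclei and 1858 and 2188 in positive ones. For Acacb the same shares were 10.2% and 11.9% against 72.3% and 79.3%.

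The genes varied among positive nuclei more than counting alone gives. With each positive nucleus thinned to 500 UMIs, the variance of the members' summed UMIs over their mean was 2.48 in 1565 taPVAT nuclei, 1.76 in 1884 BAT nuclei and 8.86 in 401 cow nuclei, where counting alone would give about 1. Fasn had the highest such ratio of the single genes in the 3 libraries, at 2.41, 1.95 and 6.26. Acaca followed at 1.87, 1.40 and 5.58, while Thrsp, at 1.11, 1.15 and 0.975, was close to 1. At equal relative spread this ratio is larger for genes with more UMIs, so it does not rank genes by relative spread. The mean in cow was 1.56 UMIs for Fasn and 0.0274 for Thrsp, where a ratio near 1 says little. In cow 30.7% of nuclei had no member UMI, and 32 nuclei had at least 15. A progenitor-marker UMI was found in 84.5% of positive and 76.8% of negative cow nuclei at full depth. The summed progenitor markers stood at 1535 and 2106 CPM. The share depends on depth, so it does not show a mixture of cell types. The part of the cow spread that comes from other cell types among positive nuclei was not tested.

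**Figure D5:**
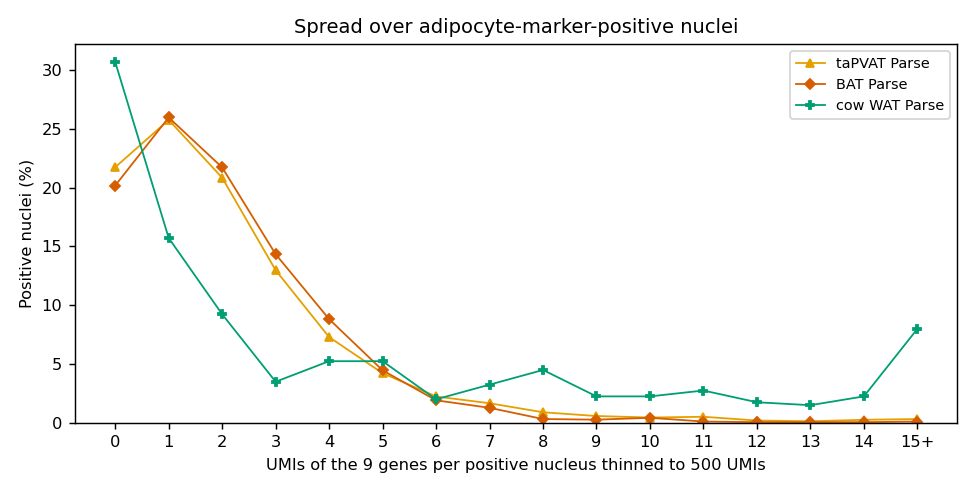
Share of positive nuclei, in percent, by the number of UMIs of the 9 members after thinning each nucleus to 500 UMIs, for taPVAT, BAT and cow. The cow curve starts higher at 0 (30.7% of nuclei) and has a longer tail, with 7.98% of nuclei at 15 or more.

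Acaca and Fasn were found together more often than their shares alone would give. In taPVAT 38.0% of Acaca-positive nuclei held Fasn against 15.9% of the others, in BAT 25.1% against 12.4%, and in cow 71.7% against 23.8%. Fasn and Thrsp also went together in the brown libraries, at 26.0% against 16.6% and 26.5% against 16.2%. Srebf1 did not go with Fasn, at 17.5% of Fasn-positive nuclei against 18.8% of the others in taPVAT and 18.8% against 22.9% in BAT. Acacb and Fasn were found together at 22.9% against 19.8% in taPVAT and 15.1% against 15.4% in BAT. In cow, Mlxipl was found in 18.7% of Fasn-positive nuclei and 2.80% of the others. How far other cell types among positive cow nuclei give the cow shares was not tested. These shares describe nuclei of 1 library each and carry no test.

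Other genes were ranked by how closely their counts followed the members' sum over the same thinned nuclei, as Pearson's r across nuclei of 1 library, given as a description. In taPVAT the closest of 726 genes were Gpam, which starts glycerolipid synthesis (r = 0.293), Lpin1, a phosphatidate phosphatase (0.191), and Pc, pyruvate carboxylase (0.168), followed by ENSRNOG00000072789 (0.168) and AABR07035839.1 (0.165). In cow the closest of 614 were ACSS2, which makes acetyl-CoA from acetate (0.467), CYP2B6 (0.433), DGAT2, which completes triglycerides (0.427), TENM4 (0.414) and ENSBTAG00000061247 (0.405). In BAT all values were low, led by ENSRNOG00000086174 (0.173), Acsl1, a fatty acid activating enzyme (0.147), ENSRNOG00000087169 (0.140), Gtf2ird1 (0.139) and AABR07035839.1 (0.137). Median r over the genes compared was 0.0103 in taPVAT, 0.0175 in BAT and 0.0194 in cow, and the nuclei of a library share its preparation. The cow values come from positive nuclei defined by Plin1 alone, and the part of other cell types among them was not tested.

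The other genes of substrate and NADPH supply were counted by the same rule. Of 9 listed genes, 8 passed the filter and 6 were higher in brown fat over all nuclei, with a median log2 difference of 2.27, and none was lower, beside 9.07% of all genes higher and 22.2% lower. Mpc1, a subunit of the mitochondrial pyruvate carrier, was 9.44-fold and Acss2 7.24-fold higher, while Pc was 2.13-fold and Idh1, an NADPH-making isocitrate dehydrogenase, 3.33-fold higher without passing every pair. Acss2 measured 284 CPM in taPVAT and 393 in BAT against 42.3 and 48.5 in mesPVAT Parse and RP fat, and 446 in cow. In cow against white rat fat, 4 of 8 were higher and none lower, beside 11.8% of all genes higher and 25% lower, with Acss2 highest at 9.68-fold, and with Pc at 0.535-fold and Mdh1, malate dehydrogenase, at 0.67-fold not called.

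The other genes of elongation and desaturation were split, and their counts and those of the control genes stand beside the same shares of all genes, 9.07% higher and 22.2% lower in brown fat and 11.8% and 25% in cow. For elongation and desaturation in brown fat, 3 of 8 were higher and 1 lower of the 12 listed, led by Elovl5, an elongase of polyunsaturated fatty acids, at 3.28-fold and Hsd17b12, an enzyme of the elongation cycle, at 2.56-fold, with Elovl7 at 0.185-fold and Fads2, the delta-6 desaturase, at 0.53-fold lowest. In cow 3 of 7 were higher and 2 lower, with Hacd2, the dehydratase of the elongation cycle, at 5.46-fold, Elovl5 at 3.31-fold, Fads2 at 0.227-fold and Elovl7 at 0.281-fold. Of the 14 genes of control, 11 passed in brown against white, of which 3 were higher and none lower. Prkaa2, a catalytic subunit of AMP-activated kinase, was 4.57-fold and Insig1, which holds SREBP in the endoplasmic reticulum, 3.32-fold higher, and Scap and Nr1h2 were lowest at 0.834-fold and 0.872-fold. In cow 2 of 11 were higher, Insig1 at 8.46-fold and Scap, the escort of SREBP, at 4.16-fold, and none was lower, with Mbtps1 at 0.517-fold and Prkaa2 at 0.571-fold.

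Of the 3 genes listed for malonyl-CoA, Cpt1b stood apart in brown fat. Cpt1b encodes the muscle and brown fat form of the carnitine palmitoyltransferase that malonyl-CoA inhibits. It measured 812 CPM in taPVAT and 1033 in BAT, 32.6 and 36.7 in mesPVAT Parse and RP fat, 46.9 in mesPVAT 10x and 2.91 in cow. It was 25.8-fold higher in brown than in white rat fat and 0.0838-fold in cow against white rat fat. It was the 1 of 3 listed genes called in each comparison, where 9.07% of all genes were higher in brown fat and 25% lower in cow. Cpt1a, the liver form, measured 26.3 CPM in taPVAT, 14.4 in BAT, 42.9 and 50.9 in the white Parse libraries and 76.2 in cow, and was called in neither. Mlycd, which breaks malonyl-CoA down, was 2.51-fold and 1.44-fold higher without a call.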

How the data were processed

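Single nuclei of 6 libraries were analysed. For the Parse libraries the authors split reads by species, counted them with split-pipe on GRCr8 or ARS-UCD1.3 and joined 2 sublibraries; for the 10x library they used Cell Ranger on DAPI-sorted nuclei isolated by another protocol. The labels' processing notes also name FastQC and Scanpy. The deposited values are UMI counts per gene and nucleus, not normalized. All deposited barcodes were used, with no doublet caller. UMIs were summed per library and class of nuclei and divided by their total (CPM). Each group has 1 library, so no test was run. Intervals are exact Poisson or binomial at 95% and cover counting error only. A gene was called where every pair of libraries passed 2-fold after adding 1 UMI, at a mean of at least 10 CPM. A marker class needed at least 2 UMIs of its markers and more than of any other class. The text names every member, the 2 highest and 2 lowest folds of each of 4 pathway lists, and the 5 genes most like the members; 1 value that this rule names is not reported here. The members and lists were chosen with earlier results of these data known. Mlxipl in rat was not analysed here, nor were ADIPOQ and PPARG in cow. The steps were tested on simulated data and run in Python 3.11.15 with numpy 2.4.6, scipy 1.17.1 and pandas 2.3.3.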

Additional observations from a re-analysis of the deposited data

Results flagged for a closer look

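Elovl6 stood on opposite sides in brown and white rat fat when positive nuclei were set against negative ones. The log2 ratio was 2.27 in taPVAT and 1.99 in BAT, and -0.67 in mesPVAT Parse and -0.26 in RP fat. With every nucleus thinned to 200 UMIs first, the same ratios were 0.78, 0.59, 0.14 and 1.23. The 1 UMI added to each sum weighs more on the side with fewer nuclei. These were 406 positive against 2146 negative in mesPVAT Parse and 118 against 1385 in RP fat. It raises ratios that rest on few UMIs, so thinning cannot say whether the opposite signs hold at equal depth. The difference between the depots was not tested, since each depot had 1 library, and the white values rested on 22 and 6 UMIs in positive nuclei.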

How the results depend on the processing

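No paired analysis was possible because each group has 1 library. Of the alternatives to the counts of members and the shares, 163 stayed within the limits set and 35 moved. Among the alternatives to the log2 ratios of single members, 657 stayed within counting error of the main value, 224 moved past it and 1 reversed. Between libraries, shares of all genes called were computed only for the study's limits and for mesPVAT 10x as the white side. Within libraries they were computed only for at least 500 UMIs and for thinning. Counts of members under the other settings stand without such a background and describe the members only. Leaving out 1 library at a time gave 6 to 8 members higher and 0 lower for brown against white over all nuclei, 7 to 8 higher and 0 to 1 lower in positive nuclei, 5 to 6 higher and 1 lower for cow against white rat over all nuclei, and 6 to 7 higher and 1 lower in positive nuclei; the highest brown counts came without RP fat. For brown against white, Scd made 1 member lower over all nuclei with no minimum CPM or with mesPVAT 10x as the white side, and 0 were lower in positive nuclei with at least 500 UMIs, in sublibrary 2 alone, with at least 2 UMIs of Plin1 and Adipoq, or thinned to 200 UMIs. With mesPVAT 10x as the white side, chosen after seeing the data for the brown comparison, Srebf1 reversed to -0.10 on the log2 scale in positive nuclei. For cow, 3 members were lower with mesPVAT 10x as the rat side, over all and in positive nuclei, where 29.7% and 30.7% of all genes were lower. In positive nuclei under the study's limits 2 were lower, where 25.1% of all genes were. Members higher in positive than negative nuclei went from 1 to 7 (at least 500 UMIs), 2 (5 adipocyte markers, or thinned), 5 (fold of 1.5) and 0 (fold of 3) in mesPVAT 10x. They went from 2 to 4 (at least 500 UMIs, thinned, or fold of 1.5) and 1 (fold of 3) in mesPVAT Parse, from 3 to 5 (sublibrary 2) and 7 (thinned) in RP fat, and when thinned to 2 in taPVAT and 1 in BAT. With at least 500 UMIs, 5.03% of all genes passed in mesPVAT Parse. The thinned counts carry the limits of that step given above. Shares of nuclei with any member, thinned to 100 and 500 UMIs, were 11.9% and 38.2% in mesPVAT 10x, 6.77% and 26.2% in mesPVAT Parse, 6.55% and 22.9% in RP fat, 26.2% and 67.2% in taPVAT, 25.3% and 68.2% in BAT, and 15.3% and 41.8% in cow. The causes were not tested. Depth limits the white Parse libraries, where Fasn rests on 52 and 24 UMIs.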
